A study of Rattus norvegicus with 9 samples.

Results

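Potassium channel genes of the rat renal outer medulla are described here. They are the loci with a single gene symbol formed of Kcn, further letters and a number, so that pore-forming and auxiliary subunits both count. The table of 30315 loci held 92 such genes at 102 loci, and the locus with the highest mean level stood for each of the 8 symbols that had more than 1 locus. A locus that joins Kcnj14 to another gene was left out. RNA came from the outer medulla of 9 individual MCW SS rats, a salt-sensitive strain, with 1 library per rat and 3 rats per group. The 0.4% salt group ate a 0.4% NaCl diet, had the same surgery as the other rats and was collected before any oligonucleotide or high-salt diet was started. The HS_SCR group was given, into the kidney, a GapmeR of scrambled sequence (GapmeRs are antisense oligonucleotides that lead to cleavage of a matching RNA) at 4 mg/kg and ate a 4% NaCl diet for 7 days. The HS_DT group received GapmeRs directed at 2 transcripts, each at 2 mg/kg, and ate the 4% NaCl diet (7 in the labels, with no unit for this group). The transcripts were Dnmt3a, whose enzyme places DNA methylation, and Tet3, whose enzyme starts its removal. HS_SCR differs from 0.4% salt in diet, oligonucleotide and day of collection, and the parts these play cannot be told apart.

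Potassium channels let potassium cross the cell membrane and set the membrane voltage. In the thick ascending limb of the outer medulla, potassium taken up by the apical sodium-potassium-chloride cotransporter returns to the lumen through the channel ROMK, while basolateral inward rectifiers let potassium leave on the blood side. Vascular, immune and nerve cells of the tissue use other members of the family to set their excitability.

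Levels are FPKM, fragments scaled to transcript length and library size, so they may be compared between genes. The depth of the libraries is unknown, with relative depths estimated at 0.759 to 1.37. HS_SCR replicate 3 was far from the rest along principal component 2, which held 22.1% of the variance. It scored -51.5 there and the other 8 libraries -2.34 to 24, so results are given without it where it changes a call. The labels number the rats 859 to 861 for 0.4% salt, 784, 785 and 871 for HS_SCR, and 781, 782 and 862 for HS_DT, and do not say whether these number series mark cohorts. HS_SCR and HS_DT stand for the libraries so labelled. The targeted genes were not lowest in the libraries labelled HS_DT: Dnmt3a had means of 12.8, 7.70 and 9.999 FPKM and Tet3 of 9.16, 6.24 and 8.03 FPKM in 0.4% salt, HS_SCR and HS_DT. Among markers fixed as lists, 7 of 10 tested macrophage markers, 7 of 10 tubular injury genes and 4 of 5 erythroid markers rose in HS_SCR against 0.4% salt, and 5 of 17 proximal tubule markers fell. Of all tested loci, 8.2% rose and 4.88% fell in this comparison, and the later marker counts for it stand beside the same shares. The thick ascending limb markers expected of this zone were present, at a summed level of 3017 to 4685 FPKM in 0.4% salt, 1385 to 3448 in HS_SCR and 2632 to 3605 in HS_DT.

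Of the 92 channel genes, 31 averaged 1 FPKM or more across the libraries and were tested for change. The other 61 comprised 6 listed at 0 in every library, 26 above 0 and under 0.1 FPKM, and 29 from 0.1 to under 1 FPKM. Each library had between 26 and 33 of the genes at 1 FPKM or more. A total of 4 tested genes, Kcnd2, Kcnip1, Kcnk16 and Kcne1l, had a group mean under 1 FPKM and so passed the filter through the groups in which they were higher.

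The summed level was concentrated in a few genes. Kcnj1, which encodes ROMK, Kcnk1, which encodes a background channel of the 2-pore domain family, and Kcnj16, a basolateral inward rectifier subunit, supplied 73.0% to 79.7% of all channel FPKM in every library. Their means over the 9 libraries were 217, 129 and 99.2 FPKM. Kcnt1, a sodium-activated channel, followed at 15.5 FPKM, and no further gene reached a mean of 10. The plot of levels by family shows that the inward rectifiers and the 2-pore genes reach the highest levels, whereas all 5 tested voltage-gated genes, out of 40 in the table, stayed under 10 FPKM in every library.

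**Figure D1:**
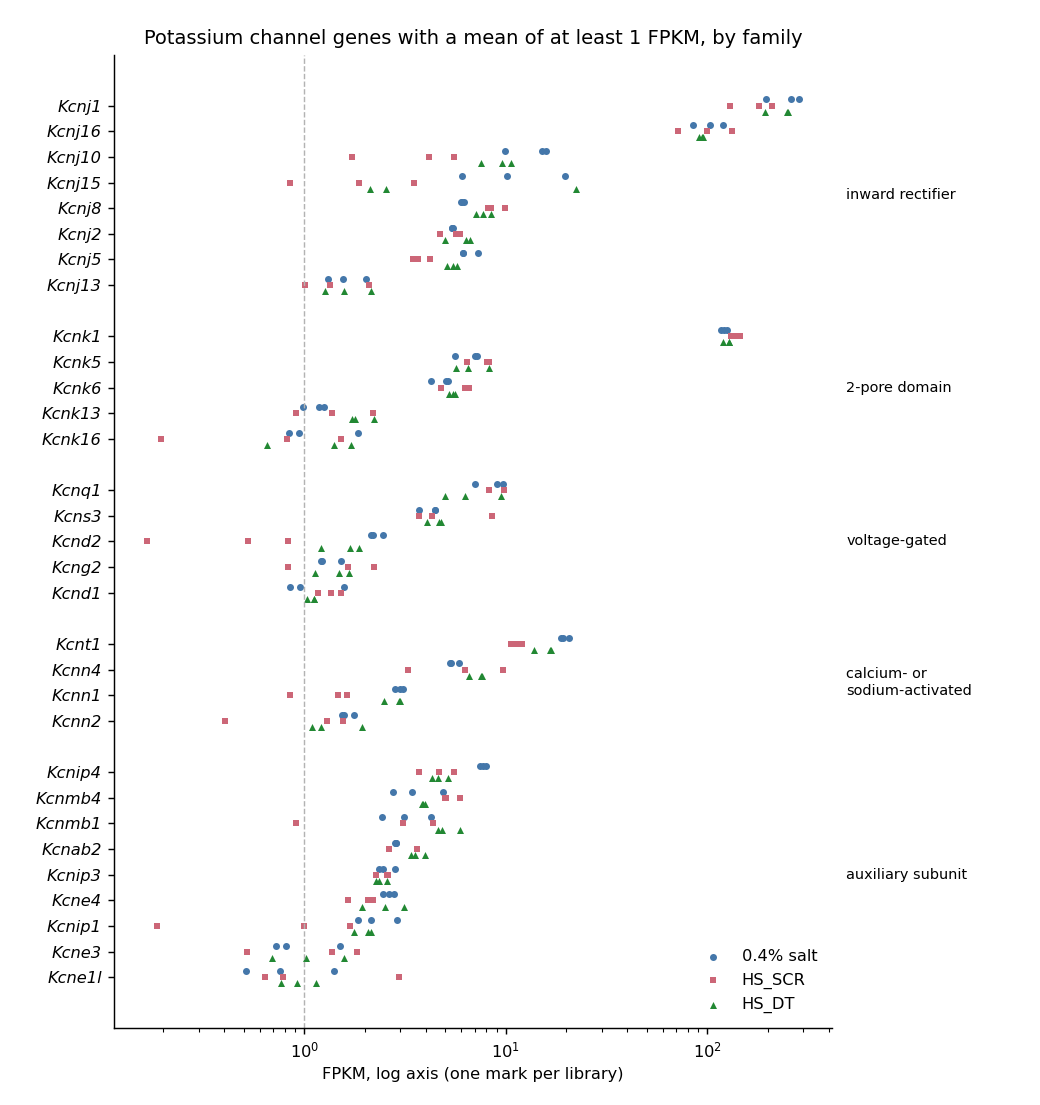
FPKM of the 31 tested potassium channel genes on a log axis, 1 mark per library, ordered by mean level within each family, with a dashed line at 1 FPKM. Kcnj1, Kcnk1 and Kcnj16 lie near or above 100 FPKM, and in Kcnj10, Kcnd2, Kcnn1, Kcnt1 and Kcnj5 the 3 HS_SCR libraries lie below the 6 others.

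On build rn5 the called genes and the 3 most abundant ones lie at chr13:95244799-95278469 (Kcnj10), chr4:48098953-48607643 (Kcnd2), chr16:20184458-20206385 (Kcnn1), chr3:8673046-8728754 (Kcnt1), chr14:66629283-66780362 (Kcnip4), chr8:33168856-33510168 (Kcnj5), chr4:240996189-241003368 (Kcnj8), chr8:33536975-33571680 (Kcnj1), chr19:69518868-69556619 (Kcnk1) and chr10:99026960-99087975 (Kcnj16). Kcnj1 and Kcnj5 are neighbours on chromosome 8.

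In HS_SCR against 0.4% salt, which joins the 4% NaCl diet with the scrambled oligonucleotide, 6 channel genes fell and 1 rose. Kcnj10, Kcnd2, Kcnn1, Kcnt1, Kcnip4 and Kcnj5 fell, and Kcnj8 rose. The 6 genes that fell are 19.4% of the 31 tested, where 4.88% of all 14338 tested loci fell, and the 1 that rose is 3.23%, where 8.2% of all loci rose. The median log2 change was -0.02 over the 31 genes and 0.02 over all loci. Non-overlapping values, with all 3 libraries of a group on one side, were seen in 12 of the 31 genes (38.7%), 3 of them higher and 9 lower, and in 33.5% of all loci. The higher ones were 9.68% of the 31, against 19.1% of all loci, and the lower ones 29%, against 14.5%. Calls rest on limma with p adjusted over all tested loci and an adjusted p under 0.05. Without 0.4% salt replicate 1 or without 0.4% salt replicate 2, Kcnd2, Kcnj5 and Kcnt1 were the 3 genes still called lower and none was called higher, and the same counts came from a fit of the 2 groups alone. In these 3 fits 0.621% to 0.976% of all loci were called lower and 1.8% to 2.29% higher. Kcnd2, counted here, had an HS_SCR mean of 0.507 FPKM and passed the filter through the groups in which it was higher. The same holds for Kcnip1, with an HS_SCR mean of 0.954 FPKM, which is with Kcnd2 among the lower genes without overlap. When the fit included a proximal tubule score (the mean log2 level of those markers in a library), no channel gene and none of the 14338 loci was called. The log2 changes in that fit were -1.87 for Kcnj10, -1.65 for Kcnd2, -0.89 for Kcnt1, -0.64 for Kcnn1, -0.62 for Kcnip4, -0.42 for Kcnj5 and 0.33 for Kcnj8 (limma adjusted p from 0.0914 to 0.389), so every direction was kept and the first 3 changes were larger than without the score. The score did not overlap between the groups (5.04 to 6.49 in 0.4% salt, 2.22 to 4.17 in HS_SCR), so this fit separates group from score poorly.

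**Figure D2:**
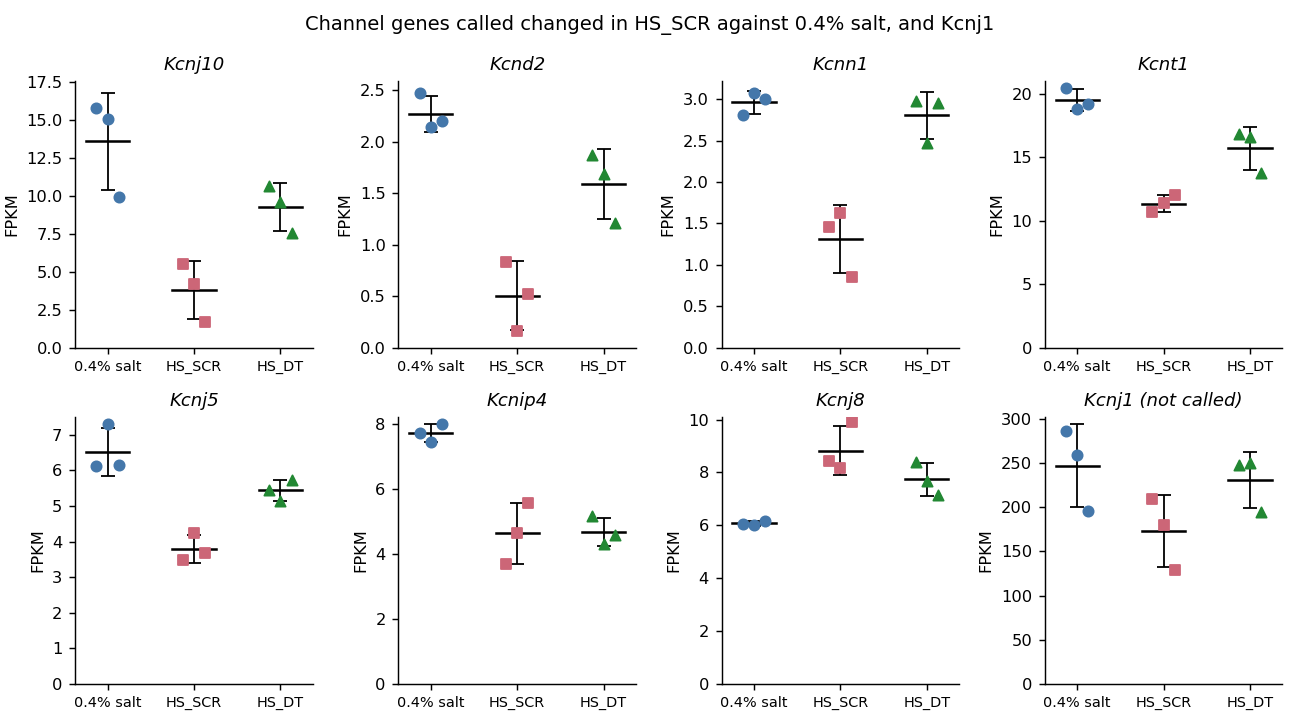
FPKM by library for the 7 channel genes called changed in HS_SCR against 0.4% salt and for Kcnj1, with a line at each group mean and bars of 1 SD (n = 3). Kcnip4 is low in HS_SCR and HS_DT alike, and Kcnj8 is lowest in 0.4% salt.

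Among the inward rectifiers, 2 of 8 tested genes fell, 1 rose and 5 did not pass the test, with a median log2 change of -0.31. Kcnj10 encodes a pore subunit that joins with the Kcnj16 subunit in basolateral channels of the distal nephron. Its level was 15.8, 15.1 and 9.93 FPKM in the 0.4% salt libraries, 5.53, 4.17 and 1.72 in HS_SCR and 10.6, 9.6 and 7.52 in HS_DT. The HS_SCR values were the lowest of the 9, and HS_SCR replicate 3 was the lowest of all. The log2 change was -1.67 (SE 0.31, limma adjusted p = 0.015) with a 95% interval of -2.38 to -0.95, and it was -1.30 (limma adjusted p = 0.00486) without HS_SCR replicate 3. In the fit without that library 15.7% of all loci were called lower, against 4.88% with all 9 libraries. The call ended without 0.4% salt replicate 1 (limma adjusted p = 0.0638), without 0.4% salt replicate 2 (0.0677) and in a fit of the 2 groups alone (0.0545). In bulk tissue, fewer cells of a type and less RNA per cell cannot be told apart.

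Markers of the thick ascending limb moved with this change. Of 15 tested markers, 4 fell and 1 rose in HS_SCR, where 4.88% of all loci fell and 8.2% rose. The median log2 change of the markers was -0.39. With the thick ascending limb score of each library (the mean log2 level of those markers) as a covariate, the Kcnj10 change was -0.56 (limma adjusted p = 0.124) and was no longer called. With the proximal tubule score it was -1.87 (limma adjusted p = 0.195), larger than without a score and also not called. The thick ascending limb score did not overlap between the groups either (5.90 to 6.23 in 0.4% salt, 5.10 to 5.74 in HS_SCR). Fits with either score therefore separate group from score poorly, here and below for HS_SCR against 0.4% salt. A lost call does not tell the cause, which was not tested.

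Kcnj16, the partner of Kcnj10, measured 103, 120.2 and 85.1 FPKM in the 0.4% salt libraries, 100.1, 132 and 71.2 in HS_SCR and 95.7, 91.2 and 93.9 in HS_DT. Its groups overlapped, and the change in HS_SCR was -0.05 (SE 0.21, limma adjusted p = 0.885), with an interval of -0.53 to 0.43. Within HS_SCR, replicate 2 had the highest Kcnj16 of all 9 libraries and replicate 3 the lowest. The direction was not stable: the value became positive without HS_SCR replicate 3, without 0.4% salt replicate 2, with library weights and with the proximal tubule score, and it reached 0.66 (limma adjusted p = 0.0450) with the thick ascending limb score as a covariate.

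The ratio of Kcnj16 to Kcnj10 was computed after these values had been seen. It was 6.52, 7.98 and 8.57 in the 0.4% salt libraries, 18.1, 31.7 and 41.3 in HS_SCR and 9.01, 9.5 and 12.5 in HS_DT. All 3 HS_SCR libraries exceeded the 6 others, and the HS_DT libraries lay just above 0.4% salt. An exact two-sided permutation test gave p = 0.1 for each of the 3 pairs of groups, the smallest p that 3 against 3 libraries allow, and 0.171 after adjustment over the 12 such ratio comparisons made.

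Kcnj1 was the most abundant channel gene in 8 of the 9 libraries. It measured 286, 259.9 and 195 FPKM in the 0.4% salt libraries, 209.7, 180.3 and 129 in HS_SCR and 248, 251 and 194 in HS_DT. HS_SCR was lower on average, at 173 ± 40.6 FPKM against 247 ± 46.8 (SD, n = 3), but HS_SCR replicate 1 exceeded 0.4% salt replicate 3, so the groups overlapped. The log2 change was -0.52 (SE 0.21, limma adjusted p = 0.123) with an interval of -0.99 to -0.05, which did not pass the test. With quantile normalization the change was -0.70 (limma adjusted p = 0.0370), and it was, when the fit included the rat number series, -0.84 (limma adjusted p = 0.0324). All 3 rats of 0.4% salt are in the higher number series, and in HS_SCR only replicate 3 is, so group and series are partly confounded. Without HS_SCR replicate 3 the change was -0.33 (limma adjusted p = 0.190). With the thick ascending limb score as a covariate it was 0.18 (limma adjusted p = 0.491). An unnamed locus at the same span had a mean of 17.6 FPKM, and fragments could be split between the 2 loci.

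SLC12A1, the apical cotransporter that ROMK serves, fell by 0.90 on the log2 scale in HS_SCR (SE 0.11, limma adjusted p = 0.00638). Kcnj1 as a percentage of SLC12A1 was 29.4, 28.1 and 26.4 in the 0.4% salt libraries, 46.5, 38.1 and 26.8 in HS_SCR and 44, 40.9 and 35.4 in HS_DT. HS_DT lay above 0.4% salt in all 3 libraries, whereas HS_SCR replicate 3 lay within the 0.4% salt values. Kcnj10 as a percentage of SLC12A1 was 1.62, 1.63 and 1.34 in the 0.4% salt libraries, 1.22, 0.882 and 0.357 in HS_SCR and 1.88, 1.56 and 1.37 in HS_DT, with every HS_SCR library below the others. The exact permutation p was 0.3 for Kcnj1 and 0.1 for Kcnj10 in HS_SCR against 0.4% salt. The value of 0.1 is the smallest possible, and it was 0.171 after adjustment over the 12 ratio comparisons. Kcnj10 and SLC12A1 were both called in these same libraries, so their ratio is no separate support for either call.

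**Figure D3:**
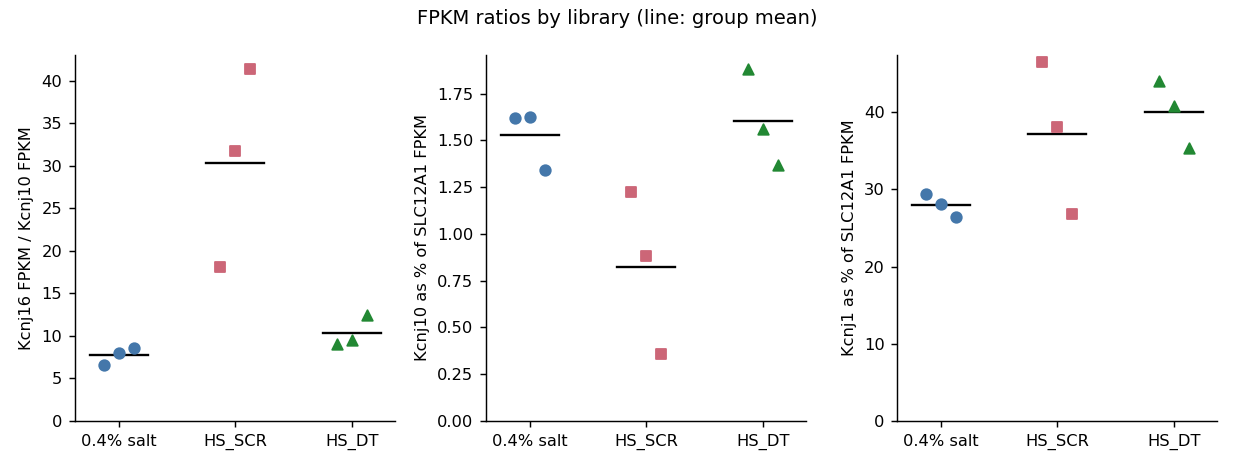
Ratios of FPKM by library, with a line at each group mean: Kcnj16 per Kcnj10 at left, then Kcnj10 and Kcnj1 as a percentage of SLC12A1. The HS_SCR libraries are highest in the first panel and lowest in the second, and they spread from 26.8% to 46.5% in the third.

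Kcnj5, a G-protein-gated inward rectifier known from heart and adrenal, measured 6.13, 7.3 and 6.15 FPKM in the 0.4% salt libraries, 3.48, 4.23 and 3.67 in HS_SCR and 5.45, 5.13 and 5.74 in HS_DT. The 3 groups did not overlap, with HS_SCR lowest and 0.4% salt highest. The log2 change in HS_SCR was -0.65 (SE 0.10, limma adjusted p = 0.00979). With the thick ascending limb score as a covariate it was -0.57 (limma adjusted p = 0.0568) and not called. The Kcnj5 locus spans that of Arhgap32, with a mean of 5.61 FPKM. Whether counting used strand is not given, so its level is uncertain.

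Kcnj8 encodes the pore of an ATP-sensitive channel of smooth muscle and pericytes, in which ABCC9 is the sulfonylurea receptor subunit. Kcnj8 measured 6.06, 6.0 and 6.17 FPKM in the 0.4% salt libraries, 8.41, 8.17 and 9.9 in HS_SCR and 8.4, 7.67 and 7.13 in HS_DT. The 0.4% salt values were the 3 lowest, with a spread of 0.0896 FPKM (SD), and the log2 change in HS_SCR was 0.47 (SE 0.10, limma adjusted p = 0.020). The call ended without any one of the 0.4% salt libraries, with limma adjusted p from 0.0538 to 0.0836, and also when the trend on locus width was removed (0.0995), the 2 groups were fitted alone (0.0631) or the thick ascending limb score was a covariate (0.155).

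ABCC9, which lies next to Kcnj8 on chromosome 4, did not pass the test, at 0.01 (SE 0.16, limma adjusted p = 0.982). Its values were 15.7, 17.1 and 18.8 FPKM in the 0.4% salt libraries, 20.3, 18 and 14 in HS_SCR and 22, 19.7 and 15.9 in HS_DT. The ratio of Kcnj8 to ABCC9 was 0.386, 0.35 and 0.329 in the 0.4% salt libraries, 0.414, 0.454 and 0.709 in HS_SCR and 0.383, 0.39 and 0.45 in HS_DT. The exact permutation p for HS_SCR against 0.4% salt was 0.1, the smallest possible, and 0.171 after adjustment over the 12 ratio comparisons. The ratio uses the same Kcnj8 values that gave the call, so it is no separate support for it. Of 9 tested pericyte and smooth muscle markers, 1 rose and 1 fell. Their summed level was 431 to 616 FPKM in 0.4% salt, 453 to 785 in HS_SCR and 669 to 735 in HS_DT, and their part in the Kcnj8 change was not tested.

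Kcnj15, an inward rectifier subunit of the proximal tubule, varied most among the 31 genes, with a coefficient of variation of 105% over the 9 libraries. It measured 6.07, 19.6 and 10.1 FPKM in the 0.4% salt libraries, 0.847, 3.51 and 1.86 in HS_SCR and 2.11, 2.56 and 22.4 in HS_DT. All HS_SCR values were below all 0.4% salt values, and HS_DT was split, with replicate 3 the highest of the 9 libraries. The mean log2 change in HS_SCR was -2.03 (SE 0.76, limma adjusted p = 0.108) with an interval of -3.76 to -0.30, so it was not called. Proximal tubule markers moved with it, with a summed level of 1170.3 to 3062 FPKM in 0.4% salt, 145 to 734 in HS_SCR and 495 to 2056 in HS_DT and a median log2 change of -2.79 over 17 tested markers in HS_SCR. Without HS_DT replicate 3, which is in neither group compared here, the change stayed at -2.03 and the limma adjusted p was 0.0304. The 3 groups share 1 estimate of the spread in the fit, so this library enters only there. With the proximal tubule score in the fit the value was 0.62 (limma adjusted p = 0.561).

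**Figure D4:**
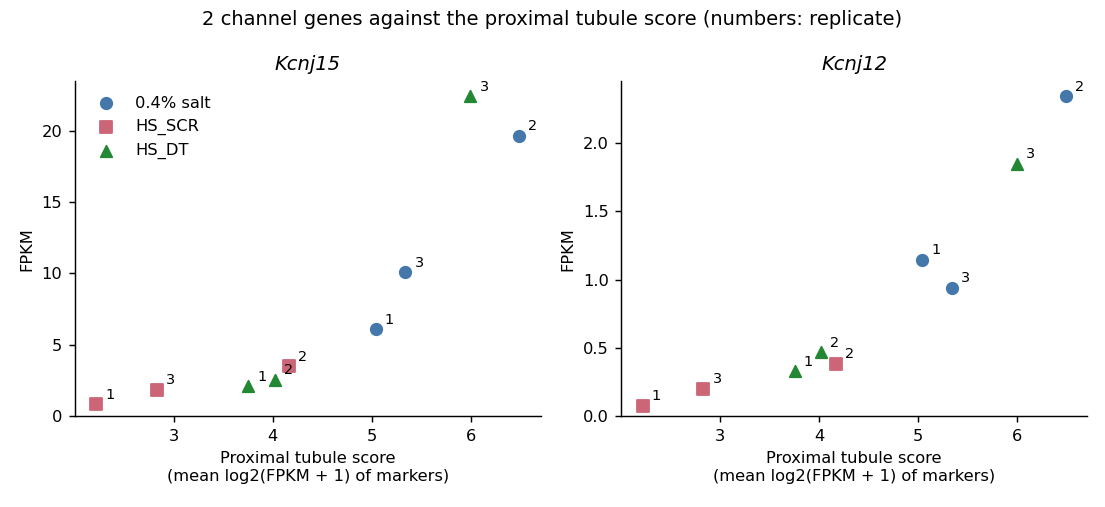
FPKM of Kcnj15 (left) and Kcnj12 (right) against each library's proximal tubule score, which is the mean log2(FPKM + 1) of the tested markers of that segment, with the replicate number beside each mark. Both genes are highest in 0.4% salt replicate 2 and HS_DT replicate 3, which have the highest scores (6.49 and 6.0), and lowest in HS_SCR replicate 1.

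Kcnj2, a classical inward rectifier, and Kcnj13 completed the tested inward rectifiers. Kcnj2 ranged over the 9 libraries from 4.73 to 6.63 FPKM and Kcnj13 from 1.005 to 2.13 FPKM. Neither passed the test in HS_SCR, with log2 changes of -0.0030 (interval -0.27 to 0.27) and -0.10 (interval -0.56 to 0.36). An Ensembl-only locus with a mean of 20.7 FPKM overlaps Kcnj13. Kcnj11, the other pore of ATP-sensitive channels, had a mean of 0.342 FPKM, and Kcnj6 was listed at 0 in all libraries.

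None of the 5 tested 2-pore domain genes was called, and their median log2 change in HS_SCR was 0.19. Kcnk1 was the steadiest of the 31 genes, with a coefficient of variation of 7.44%. It measured 126, 121 and 117 FPKM in the 0.4% salt libraries, 146, 141 and 131 in HS_SCR and 128, 128 and 119.9 in HS_DT. All 3 HS_SCR values were above the 0.4% salt and HS_DT values, yet the difference was small, at 0.20 (SE 0.07, limma adjusted p = 0.11). Of all loci, 20.5% were called higher without HS_SCR replicate 3 and 10.4% with the thick ascending limb score as a covariate, against 8.2% in the main fit. For Kcnk1 the difference without HS_SCR replicate 3 was 0.24 (limma adjusted p = 0.0223), and with the thick ascending limb score it was 0.34 (limma adjusted p = 0.0463). With quantile normalization it was 0.033 (limma adjusted p = 0.771), with the rat number series 0.12 (0.330) and with the proximal tubule score 0.13 (0.706).

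Kcnk5, a channel known for its role in proximal tubule bicarbonate handling, measured 5.61, 7.03 and 7.2 FPKM in the 0.4% salt libraries, 6.42, 8.11 and 8.25 in HS_SCR and 5.68, 6.5 and 8.23 in HS_DT. The groups overlapped, and the HS_SCR change was 0.17 (SE 0.15, limma adjusted p = 0.461). Kcnk6 ranged from 4.27 to 6.56 FPKM, Kcnk13 from 0.915 to 2.21 and Kcnk16 from 0.194 to 1.85 over the 9 libraries.

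Of the 5 tested voltage-gated genes, 1 fell in HS_SCR. Kcnd2 encodes the pore of a rapidly inactivating, A-type channel known from neurons and heart. It measured 2.47, 2.14 and 2.2 FPKM in the 0.4% salt libraries, 0.831, 0.166 and 0.525 in HS_SCR and 1.87, 1.69 and 1.21 in HS_DT. The HS_SCR values were all under 1 FPKM, the 0.4% salt values all above 2, and the HS_DT values lay between without overlap. The gene thus passed the filter of 1 FPKM through the 0.4% salt and HS_DT groups. The log2 change in HS_SCR was -1.14 (SE 0.18, limma adjusted p = 0.00988) and the ratio of means was 0.223, lower than the log2 value shows because 1 FPKM is added before the logarithm. With 0.1 FPKM added the change was -2.14 (limma adjusted p = 0.0178).

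Kcnq1, a slowly activating channel of heart and epithelia, was the highest voltage-gated gene. It measured 9.64, 9.08 and 7.03 FPKM in the 0.4% salt libraries, 8.24, 9.84 and 9.75 in HS_SCR and 9.46, 6.28 and 4.97 in HS_DT, and the groups overlapped. The HS_SCR change was 0.11 (SE 0.20, limma adjusted p = 0.743), and its sign turned without 0.4% salt replicate 3. Kcns3, a modulatory subunit with no current of its own, was at 8.58 FPKM in HS_SCR replicate 3 and from 3.70 to 4.79 in the 8 other libraries. The remaining tested voltage-gated genes were Kcng2, from 0.834 to 2.22 FPKM, and Kcnd1, from 0.853 to 1.58 FPKM. Kcna10 was listed at 0 in every library.

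Of the 4 tested calcium- or sodium-activated genes, 2 fell in HS_SCR and 2 did not pass the test. Kcnt1 measured 20.5, 18.8 and 19.2 FPKM in the 0.4% salt libraries, 10.7, 11.4 and 12 in HS_SCR and 16.8, 16.6 and 13.8 in HS_DT. The 3 groups did not overlap, and the means were 19.5 ± 0.882, 11.3 ± 0.667 and 15.7 ± 1.68 FPKM (SD, n = 3). The log2 change in HS_SCR was -0.73 (SE 0.10, limma adjusted p = 0.00638) with an interval of -0.95 to -0.51. This was the smallest adjusted p among the 31 genes.

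Kcnn1 encodes a small-conductance calcium-activated channel known from neurons. It measured 2.81, 3.08 and 3.0 FPKM in the 0.4% salt libraries, 1.46, 1.63 and 0.853 in HS_SCR and 2.98, 2.47 and 2.96 in HS_DT. All HS_SCR values were below all others, while 0.4% salt and HS_DT overlapped. The log2 change in HS_SCR was -0.79 (SE 0.15, limma adjusted p = 0.015), and it was not called with the thick ascending limb score as a covariate (-0.47, limma adjusted p = 0.142), without 0.4% salt replicate 1 (0.0538) or replicate 2 (0.0669), or in a fit of the 2 groups alone (0.0555).

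Kcnn4 encodes the intermediate-conductance channel of red cells and leukocytes. It measured 5.31, 5.33 and 5.86 FPKM in the 0.4% salt libraries, 9.73, 6.31 and 3.27 in HS_SCR and 7.58, 6.58 and 7.63 in HS_DT. HS_SCR held both the highest and the lowest of the 9 values, and its change was 0.10 (SE 0.28, limma adjusted p = 0.838). Macrophage markers had a summed level of 796 to 994 FPKM in 0.4% salt, 1576 to 2179 in HS_SCR and 1326 to 1568 in HS_DT, and erythroid markers of 501 to 773, 1346 to 8721 and 1838 to 2522 FPKM in the same group order. Within HS_SCR the erythroid sum was 8721, 5717 and 1346 FPKM, in the same order of libraries as Kcnn4. The macrophage sum, at 2179, 2095 and 1576 FPKM, had this order too, but the mean log2 level of those markers ran the other way (6.79, 6.90 and 7.06). HS_SCR replicate 3, with the lowest Kcnn4 of the 9 libraries, had a higher erythroid sum than any 0.4% salt library. The part of either cell type in Kcnn4 was not tested.

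Kcnma1, the pore of the large-conductance BK channel, was below the filter at a mean of 0.537 FPKM. Its values were 0.743, 0.651 and 0.537 FPKM in the 0.4% salt libraries, 0.317, 0.503 and 0.657 in HS_SCR and 0.368, 0.433 and 0.628 in HS_DT, and it was not tested. Its auxiliary subunits Kcnmb4 and Kcnmb1 had higher means, at 4.30 and 3.74 FPKM.

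Among auxiliary subunits, 1 of 9 tested genes fell in HS_SCR. Kcnip4, the highest of them, encodes a calcium-binding protein that joins A-type channels such as Kcnd2. It measured 7.72, 7.46 and 7.99 FPKM in the 0.4% salt libraries, 3.69, 4.64 and 5.55 in HS_SCR and 5.15, 4.29 and 4.59 in HS_DT. The HS_SCR and HS_DT values overlapped each other, and both lay below every 0.4% salt value. The log2 change in HS_SCR was -0.64 (SE 0.13, limma adjusted p = 0.018), and the call ended with a fit of the 2 groups alone (limma adjusted p = 0.0616), with the rat number series in the fit (0.0627), without any of the 0.4% salt libraries (0.0571 to 0.0689) and without HS_SCR replicate 2 (0.0507).

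Other auxiliary genes are named after their values were seen. Kcnip1, a relative of Kcnip4, measured 1.86, 2.14 and 2.89 FPKM in the 0.4% salt libraries, 1.68, 0.997 and 0.186 in HS_SCR and 2.13, 2.07 and 1.76 in HS_DT, with HS_SCR below 0.4% salt in all libraries. Its change was -0.82 (SE 0.27, limma adjusted p = 0.0805), which did not pass the test. Kcnmb4 measured 2.76, 3.41 and 4.9 FPKM in the 0.4% salt libraries, 5.93, 5.05 and 4.97 in HS_SCR and 3.86, 3.95 and 3.85 in HS_DT, with a change of 0.45 (SE 0.16, limma adjusted p = 0.0926) in HS_SCR and each HS_SCR value above all 0.4% salt values. Kcne1, a partner of Kcnq1 in the heart, had a mean of 0.107 FPKM and was listed at 0 in 5 of the 9 libraries.

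Neuronal markers were measured because Kcnd2, Kcnn1, Kcnip4 and Kcnt1 are also expressed in nerve cells. Their summed level was 13.5 to 21.3 FPKM in 0.4% salt, 4.46 to 13.4 in HS_SCR and 11.1 to 13 in HS_DT. Of the 8 markers, 3 were tested and 2 of these, Nefl and Nefm, fell in HS_SCR, by 1.80 and 1.92 on the log2 scale (limma adjusted p = 0.0069 and 0.00566). Tubb3 did not pass the test. Snap25 was at 0 to 0.0821 FPKM and Elavl4 at 0 to 0.0413 FPKM in every library. The part of nerve fibres in the 4 channel changes was not tested.

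**Figure D5:**
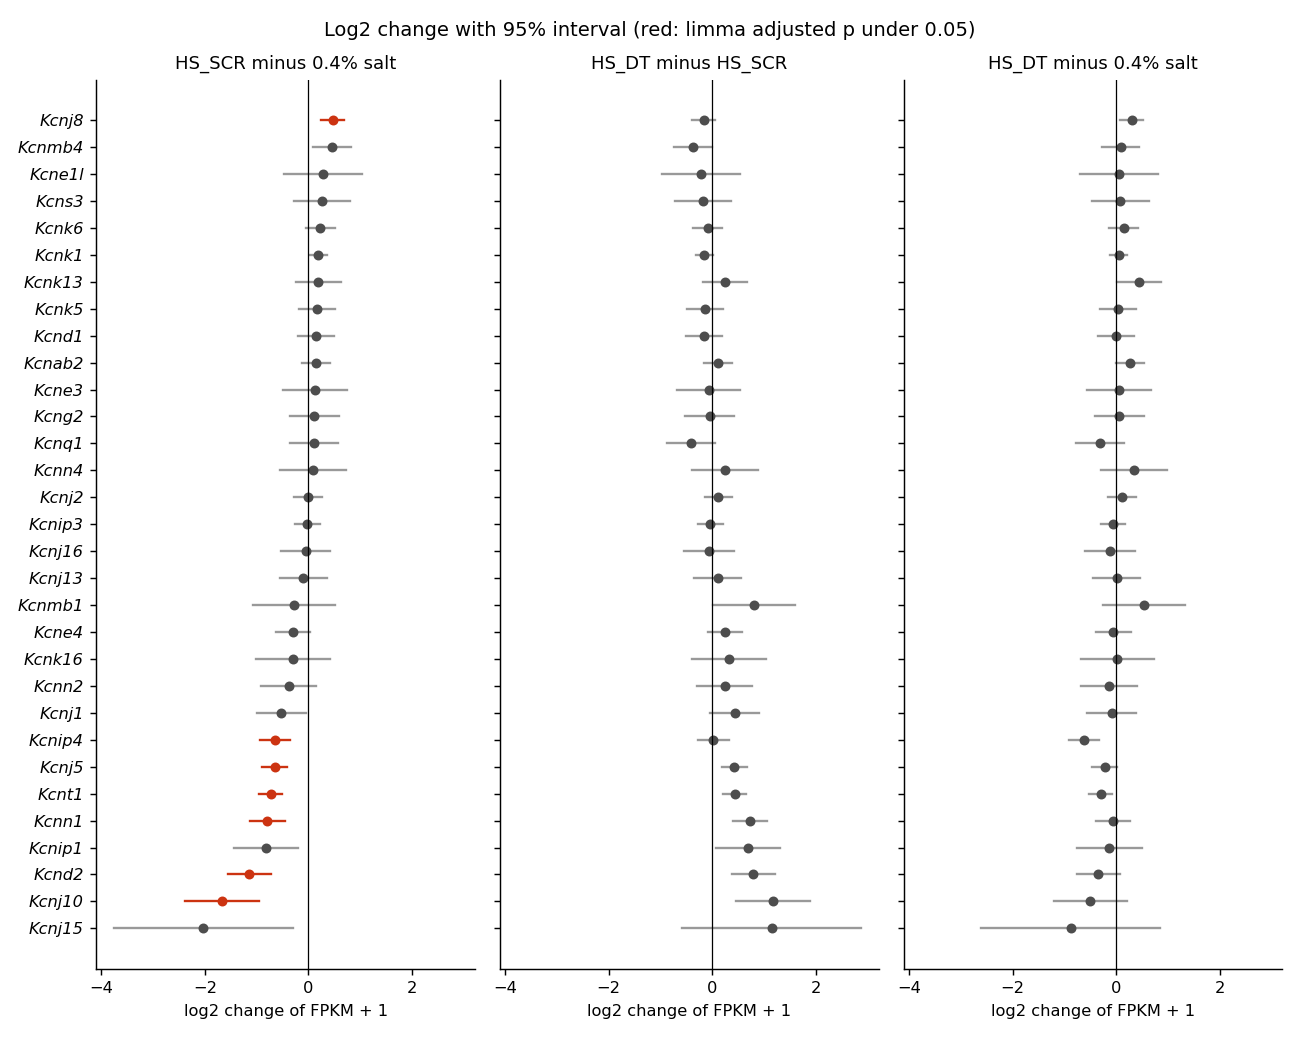
Log2 change of FPKM + 1 with its 95% interval for the 31 tested channel genes in the 3 comparisons, in the same gene order, with red for a limma adjusted p under 0.05. The 7 called changes are all in the left panel, and the left and middle panels share the HS_SCR libraries.

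In HS_DT against HS_SCR, which sets the Dnmt3a and Tet3 GapmeRs against the scrambled one on the same diet, no channel gene was called by limma. Over all loci 1 of 14338 (0.00697%) was called. At an unadjusted p under 0.05, 7 channel genes were higher (22.6%, against 8.06% of all loci) and 1 was lower (3.23%, against 11%). Values did not overlap for 7 genes that were higher in HS_DT (22.6%, against 9.1% of all loci) and 3 that were lower (9.68%, against 12.5%). Kcnd2 and Kcnip1, with HS_SCR means of 0.507 and 0.954 FPKM, are in both sets of higher genes. They passed the filter through the groups in which they were higher, so these shares rest in part on the filter. The median log2 difference was 0.11 over the 31 genes and -0.00192 over all loci.

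Values for single genes in HS_DT against HS_SCR were as follows. Kcnn1 differed by 0.73 (SE 0.15, limma adjusted p = 0.0679), Kcnt1 by 0.43 (SE 0.10, limma adjusted p = 0.0788) and Kcnd2 by 0.80 (SE 0.18, limma adjusted p = 0.084). Kcnj5 differed by 0.43 (SE 0.10, limma adjusted p = 0.0951) and Kcnj10 by 1.17 (SE 0.31, limma adjusted p = 0.112). All 5 had every HS_DT value above every HS_SCR value, and none passed the adjusted threshold. Kcnip4 differed by 0.02 with an interval of -0.27 to 0.32, and Kcnj1 by 0.43 (SE 0.21, limma adjusted p = 0.30). Kcnip1 and Kcnmb1 also lay above HS_SCR in all HS_DT libraries, with differences of 0.69 and 0.81 (limma adjusted p = 0.223 and 0.25). Kcnk1, Kcnd1 and Kcnmb4 lay below in all libraries, by -0.15, -0.16 and -0.37 on the log2 scale. This comparison reuses the HS_SCR libraries of the one above, so low HS_SCR values enter both. Mean Dnmt3a and Tet3 levels, given above, were likewise lower in the libraries labelled HS_SCR than in the HS_DT ones.

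The absence of calls in HS_DT against HS_SCR depended on HS_SCR replicate 3. Without it, Kcnd2, Kcnj10, Kcnj5, Kcnn1 and Kcnt1 were called higher, with limma adjusted p from 0.0165 for Kcnn1 to 0.0453 for Kcnj10. Calls appeared over the whole table in that fit, with 6.75% of all loci higher and 9.29% lower, beside the 5 of 31 channel genes. Kcnd2, 1 of the 5, passed the filter through the groups in which it was higher. With library weights, 4 genes were called higher (Kcnd2, Kcnj10, Kcnn1 and Kcnt1), and with the rat number series in the fit 2 were (Kcnj10 and Kcnn1). Of all loci, 4.34% were called higher with library weights and 0.879% with the rat number series.

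In HS_DT against 0.4% salt, no channel gene and none of the 14338 loci (0%) was called by limma. At an unadjusted p under 0.05, 2 channel genes were higher (6.45%, against 5.2% of all loci) and 2 were lower (6.45%, against 2.29%). Kcnip4 differed by -0.62 (SE 0.13, limma adjusted p = 0.32) and Kcnt1 by -0.30 (SE 0.10, limma adjusted p = 0.483), while Kcnj8 differed by 0.30 (SE 0.10, limma adjusted p = 0.496) and Kcnk13 by 0.44 (SE 0.19, limma adjusted p = 0.656). Values did not overlap for 6 genes that were higher (19.4%, against 14.2%) and 4 that were lower (12.9%, against 9.64%). Kcnn1 lay close to its 0.4% salt level, at -0.06 with an interval of -0.40 to 0.28, and Kcnj10 at -0.50 with an interval of -1.21 to 0.22. With library weights 3 genes were called higher (Kcnab2, Kcnj8 and Kcnk13) and 3 lower (Kcnip4, Kcnj5 and Kcnt1), where 8.22% of all loci were called higher and 4.37% lower.

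Genes that work with the channels were listed separately. Of 24 subunit partners and regulators, 14 were tested, and in HS_SCR 1 rose and 13 did not pass the test. The gene that rose was Oxsr1, a kinase of the cation-chloride cotransporters, by 0.33 (limma adjusted p = 0.020). Dpp6, an auxiliary protein of Kcnd2 channels, was under the filter, at 0.992, 1.01 and 0.678 FPKM in the 0.4% salt libraries, 0.519, 0.546 and 0.348 in HS_SCR and 0.949, 0.676 and 0.581 in HS_DT. Hcn2, a cation channel of the same superfamily, did not pass the test and ranged from 8.34 to 11.1 FPKM. Of 26 further genes of potassium and salt transport, 22 were tested. SLC12A1 and Casr, the calcium-sensing receptor of the thick ascending limb, fell, Cldn19, a tight junction protein, rose, and 19 did not pass the test. Casr fell by 1.60 on the log2 scale (limma adjusted p = 0.00941), and Cldn19 rose by 0.32 (limma adjusted p = 0.0452). Over all loci in HS_SCR against 0.4% salt, 8.2% rose and 4.88% fell. The 1 gene that rose in each list is not above that share. Neither list had a call in the comparisons with HS_DT.

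Promoter sequence was examined because Dnmt3a and Tet3 act on cytosines, mostly those followed by guanine (CpG). Methylation was not analysed here. RefSeq promoters of build GRCr8, each 300 bases from 250 before to 50 after the gene start, matched 62 of the 92 genes and 24 of the 31 tested. The 24 held a median of 13.5 CpG (3 to 48), counting the first listed start where a gene had more than 1, and all 33469 promoters a median of 7 (quartiles 3 and 19). The motif GGGCGG, on either strand, was in 12 of the 24 (50%) and in 33.1% of all promoters, CCAAT in 7 (29.2%) and 37.5%, and TATAAA in 2 (8.33%) and 14.2%. GGGCGG can overlap CpG counts, since it contains one, and a match is a description of letters only.

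The 250 bases before the start are shown for the called genes with an entry and for Kcnj1, whose first start has fewer CpG, 5′ to 3′ on the gene's strand, with CpG in capitals. They lie at chr13:87334260-87334509 (plus strand) with 20 CpG for Kcnj10, chr3:29081089-29081338 (plus strand) with 16 CpG for the first of 2 Kcnt1 starts, chr4:50742235-50742484 (plus strand) with 20 CpG for Kcnd2, chr8:39011097-39011346 (minus strand) with 8 CpG for Kcnj5, chr4:177246549-177246798 (minus strand) with 18 CpG for Kcnj8 and chr8:39037742-39037991 (plus strand) with 3 CpG for the first of 2 Kcnj1 starts.
Kcnj10: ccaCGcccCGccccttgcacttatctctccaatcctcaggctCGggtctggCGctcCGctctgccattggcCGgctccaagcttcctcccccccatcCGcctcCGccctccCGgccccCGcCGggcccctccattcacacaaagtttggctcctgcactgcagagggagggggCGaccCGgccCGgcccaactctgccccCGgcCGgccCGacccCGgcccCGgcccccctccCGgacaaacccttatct
Kcnt1: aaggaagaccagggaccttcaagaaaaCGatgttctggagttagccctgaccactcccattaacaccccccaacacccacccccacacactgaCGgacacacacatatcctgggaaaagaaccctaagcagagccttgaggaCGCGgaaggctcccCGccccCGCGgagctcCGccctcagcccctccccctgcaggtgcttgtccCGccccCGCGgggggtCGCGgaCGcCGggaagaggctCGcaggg
Kcnd2: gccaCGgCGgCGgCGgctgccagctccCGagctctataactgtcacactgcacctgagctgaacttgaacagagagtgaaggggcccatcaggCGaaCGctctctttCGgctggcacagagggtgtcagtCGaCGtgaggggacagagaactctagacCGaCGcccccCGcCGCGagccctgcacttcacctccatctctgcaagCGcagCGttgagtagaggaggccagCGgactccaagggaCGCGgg
Kcnj5: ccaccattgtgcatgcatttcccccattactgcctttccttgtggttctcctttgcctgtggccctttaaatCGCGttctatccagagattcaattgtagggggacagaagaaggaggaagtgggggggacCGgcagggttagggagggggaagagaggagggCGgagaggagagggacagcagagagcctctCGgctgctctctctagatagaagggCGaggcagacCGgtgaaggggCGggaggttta
Kcnj8: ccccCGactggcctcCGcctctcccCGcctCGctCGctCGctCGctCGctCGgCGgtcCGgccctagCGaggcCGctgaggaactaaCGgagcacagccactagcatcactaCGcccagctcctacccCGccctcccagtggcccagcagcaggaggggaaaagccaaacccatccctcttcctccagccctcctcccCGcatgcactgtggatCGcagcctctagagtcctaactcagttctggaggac
Kcnj1: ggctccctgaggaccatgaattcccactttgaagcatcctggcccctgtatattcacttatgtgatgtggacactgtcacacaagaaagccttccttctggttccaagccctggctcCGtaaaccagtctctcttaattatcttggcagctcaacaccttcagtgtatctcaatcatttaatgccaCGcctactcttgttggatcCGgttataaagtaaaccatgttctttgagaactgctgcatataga
Within the 250 bases, Kcnd2 and Kcnj10, which fell, had 20 CpG each, and Kcnj8, which rose, had 18. The first Kcnt1 start had 16 and Kcnj5 had 8, and both of these genes fell.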

How the data were processed

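Outer medulla RNA of 9 rats was measured by RNA-seq, 1 library per rat. The deposited table holds FPKM values computed by the authors at 30315 loci, and per the submitters' processing notes Trim Galore 0.2.5, Cufflinks 2.2.1 and build rn5 were used. Not given in the sources used here are the aligner, annotation, strand setting and between-library scaling. Columns were matched to rats by the rat number in the titles. 1 further column repeats HS_DT replicate 3 at all 30315 loci and was not used.

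Tests used log2(FPKM + 1) and the 14338 loci averaging 1 FPKM or more. Fold changes on this scale understate those of low genes. The 3 groups were fitted together with limma 3.58.1 in R 4.3.3 (limma-trend, 6 residual degrees of freedom, 8.54 after moderation), with two-sided tests, Benjamini-Hochberg adjustment over all tested loci and calls under 0.05. The code was tested on simulated data. Ratios were tested with scipy by exact permutation. Read counts were not analysed here, so no counting error is given. Relative depth was estimated at loci with a mean under 0.15 FPKM, as the factor near which the largest number of ratios to 0.4% salt replicate 1 lay. With that factor, 81.4% to 86.0% of these ratios lay within 2% of a ratio of whole numbers up to 6. The mean over all factors tried was 25.2% to 26.1%. The factor was fitted to the same ratios, so a higher share is partly built in.

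Named genes are the called members, the 10 highest, Kcnj1, Kcnj10, Kcnj15, Kcnj16, Kcnma1, Kcnk1, Kcnk5, Kcnq1, Kcne1, Kcna10 and Kcnt1, and the highest of each family. Members, lists and rules were chosen with earlier results of these data known. Alternatives covered pseudocounts of 0.1 and 0.5, a minimum mean of 5 FPKM or none, quantile normalization, median-ratio rescaling, removal of the trend on locus width, robust moderation, library weights, a fit of 2 groups, the replicate number as a block, the rat number series as a factor, proximal tubule and thick ascending limb scores as covariates, and leaving out each library.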

Additional observations from a re-analysis of the deposited data

How the results depend on the processing

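The cause of each change below was not tested. The 6 genes lower and 1 higher in HS_SCR against 0.4% salt became 3 and 0 with a fit of the 2 groups, 0 and 0 under the proximal tubule covariate (with every direction kept), and ran from 3 to 7 and from 0 to 2 as each library was left out. With the thick ascending limb score, the 1 higher became 2 (Kcnj16 and Kcnk1, without Kcnj8) and the 6 lower became 4, of which Kcnd2, Kcnip4 and Kcnt1 were shared and Kcne1l was added. Of all loci, 10.4% were called higher and 6.97% lower with that score. As each library was left out, 1.8% to 20.5% of all loci were called higher and 0.621% to 15.7% lower. With the width trend removed the 1 higher became 0. In HS_DT against HS_SCR the 0 genes higher became 4 with library weights and 2 with the rat number series, and ran from 0 to 5 as each library was left out. In HS_DT against 0.4% salt, library weights gave 3 higher and 3 lower in place of 0.

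Signs turned for genes that were not called in the comparison named. With the thick ascending limb score, HS_SCR minus 0.4% salt was 0.18 for Kcnj1, 0.66 for Kcnj16 and -0.089 for Kcnk5, HS_DT minus HS_SCR was -0.085 for Kcnn4, and HS_DT minus 0.4% salt was 0.25 for Kcnj1, 0.22 for Kcnj16, 0.035 for Kcnj10, -0.097 for Kcnk5 and 0.092 for Kcnn1. With the proximal tubule score the same comparisons gave 0.29 for Kcnj16, -0.14 for Kcnq1 and 0.62 for Kcnj15, then -0.43 for Kcnj15, then 0.018 for Kcnj16, 0.19 for Kcnj15 and 0.00108 for Kcnn1. With the rat number series, HS_SCR minus 0.4% salt was -0.041 for Kcnq1 and -0.22 for Kcnn4, and HS_DT minus 0.4% salt was -0.030 for Kcnk1 and 0.052 for Kcnj15. Library weights gave 0.15 for Kcnj16 in HS_SCR minus 0.4% salt and -0.033 for Kcnn4 in HS_DT minus HS_SCR, where quantile normalization gave 0.035 for Kcnj16 and -0.060 for Kcnip4, and removal of the width trend -0.033 for Kcnip4. As each library was left out, HS_SCR minus 0.4% salt ran from -0.27 to 0.18 for Kcnj16, -0.015 to 0.19 for Kcnq1 and -0.22 to 0.45 for Kcnn4. HS_DT minus HS_SCR ran from -0.30 to 0.15 for Kcnj16, -0.10 to 0.56 for Kcnn4 and -0.10 to 0.14 for Kcnip4. HS_DT minus 0.4% salt ran from -0.25 to 0.032 for Kcnj1, -0.099 to 0.13 for Kcnk5 and -0.095 to 0.00358 for Kcnn1.

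The labels number replicates but do not say that a number pairs rats. Residuals correlated above 0.1 in 5 of 9 same-number pairs (-0.08 to 0.26), and 5 of 9 libraries correlated best with their own number. With the replicate block, 7 genes were lower (Kcnj1 added, limma adjusted p = 0.0186) and 1 higher in HS_SCR against 0.4% salt, and 0 in the other comparisons. Unknown depth limits what can be said of genes under 1 FPKM, and with 3 rats a group the intervals of single genes are wide.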

Other observations

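Kcnj12, an inward rectifier under the filter with a mean of 0.860 FPKM, was named after its values were seen. It measured 1.15, 2.34 and 0.941 FPKM in the 0.4% salt libraries, 0.0778, 0.385 and 0.202 in HS_SCR and 0.33, 0.47 and 1.85 in HS_DT. Like Kcnj15, it was highest in 0.4% salt replicate 2 and HS_DT replicate 3, the libraries with the highest proximal tubule scores (6.49 and 6.0), and lowest in HS_SCR replicate 1, with the lowest score (2.22). Kcnk15 measured 0.869, 0.978 and 0.692 FPKM in the 0.4% salt libraries, 0.259, 0.351 and 0.533 in HS_SCR and 0.79, 0.826 and 0.619 in HS_DT, with every HS_SCR value below every other.

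Kcnh2, a voltage-gated gene known from the heart, measured 0.545, 0.638 and 0.852 FPKM in the 0.4% salt libraries, 0.48, 0.318 and 0.129 in HS_SCR and 0.864, 0.847 and 0.806 in HS_DT, with every HS_SCR value below every other. With no filter on low values, Kcnk15 was called lower in HS_SCR against 0.4% salt (-0.42, limma adjusted p = 0.0487), and Kcnj12 (-0.99, 0.0961) and Kcnh2 (-0.36, 0.0907) were not.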
